A study of Mus musculus with 8 samples.

Results

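The loss of T-bet was examined in injured liver of mice on a normal diet (ND), by setting the ND Rag1-Tbet DKO IRI pool against the ND *Rag1-/-* IRI pool, 2 of the 8 pools of the study. Each pool was measured on a quantitative PCR array with assays for 84 murine cytokines and chemokines plus 5 housekeeping genes, and all 84 genes were taken. *Rag1-/-* mice carry no functional *Rag1* and so form no T or B lymphocytes. The DKO line, bred from *Rag1-/-* and *Tbx21-/-* mice, is without T-bet as well, and the study describes it as lacking T-bet-dependent ILC1s (type 1 innate lymphoid cells) while keeping Eomes+ conventional natural killer (NK) cells. Both groups therefore share the loss of *Rag1*, and T-bet was absent from every cell of the DKO animals, not from a chosen lineage. Both had been fed standard chow for 12 to 15 weeks and were given as 17 to 19 weeks old in the study's legends. Both underwent ischemia-reperfusion injury (IRI), in which part of the liver was kept warm without blood flow for 45 minutes and then reperfused for 24 hours, after which the left lobe was taken. The other pools were ND livers without IRI and livers of mice on a high-fat diet (HFD) with and without IRI, of both genotypes.

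T-bet is the transcription factor that directs the type 1 program of lymphocytes. It drives expression of IFN-γ and is required for ILC1s of the liver and for the final maturation of conventional NK cells. IFN-γ acts on hepatocytes, macrophages and endothelium, which answer with the chemokines CXCL9, CXCL10 and CXCL11, and these attract cells that carry CXCR3. In a reperfused liver, Kupffer cells and incoming monocytes and neutrophils also release IL-1β, TNF and CC and CXC chemokines, which bring in further myeloid cells.

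Each pool combined the RNA of at least 3 livers, and each gene was read in 1 well per pool. No condition has a replicate, no test was made, and every difference below is a difference between 2 pools. Levels were read as threshold cycles (Ct, the point at which fluorescence crosses a threshold), so that a Ct lower by 1 stands for about 2-fold more template. The log2 difference is the negative ΔΔCt, Rag1-Tbet DKO over *Rag1-/-*, against the mean Ct of *Actb* and *Hsp90ab1*, which was 16.46 in the DKO pool and 15.81 in the *Rag1-/-* pool. A positive value means a higher level in Rag1-Tbet DKO liver. Unless another condition is named, both pools are ND IRI. The highest Ct in the table was 35, and wells at 35 were taken as not detected. A gene at 35 in 1 pool has only a bound, written "at least". Liver was measured in bulk, so that fewer cells of a type and less RNA per cell cannot be told apart.

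The other housekeeping genes gave a yardstick for the differences. *Gapdh*, a glycolytic enzyme, was read at Ct 16.34 in Rag1-Tbet DKO and 15.41 in *Rag1-/-* liver, a log2 difference of -0.28. *B2m*, the light chain of MHC class I, differed by -0.27, and *Gusb*, a lysosomal enzyme, by 0.35. The standard deviation (SD) of the log2 differences of the 5 housekeeping genes was 0.31. It rests on genes read between Ct 13.68 and 21.02, and 2 of the 5 are the references themselves. It therefore does not measure the spread of single wells at later Ct, or that between mice. The hepatocyte products on the array were also nearly level. *Hc*, complement C5, was at Ct 16.48 in Rag1-Tbet DKO and 15.78 in *Rag1-/-* liver (log2 difference -0.05), and *Thpo*, thrombopoietin, at 22.42 and 21.81 in the same order of genotypes (0.04). The array has no assay for *Rag1* or *Tbx21*, so that the deletions could not be checked in these pools.

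Of the 84 genes, 70 were below Ct 35 in both pools, 6 were detected in the Rag1-Tbet DKO pool only, 4 in the *Rag1-/-* pool only, and 4 (*Il3*, *Il21*, *Il22* and *Il24*) in neither. At a fold of at least 2, 34 of the 80 genes detected in at least 1 pool were higher in Rag1-Tbet DKO liver (42.5%) and 7 were lower (8.75%). The 34 comprised 28 genes measured in both pools and 6 bounds, and the 7 comprised 3 measured genes and 4 bounds. The measured differences ran from -1.24 to 5.12 with a median of 0.41. They were not spread evenly, since 13 of the 80 genes were at least 8-fold higher, while 32 of the 70 measured genes lay within 1.5-fold of equality. The smallest differences counted as changed were those of *Il7* (1.05), *Nodal* (1.10) and *Il10* (-1.03), and the nearest outside were those of *Cx3cl1* (0.84) and *Ccl19* (-0.86).

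**Figure D1:**
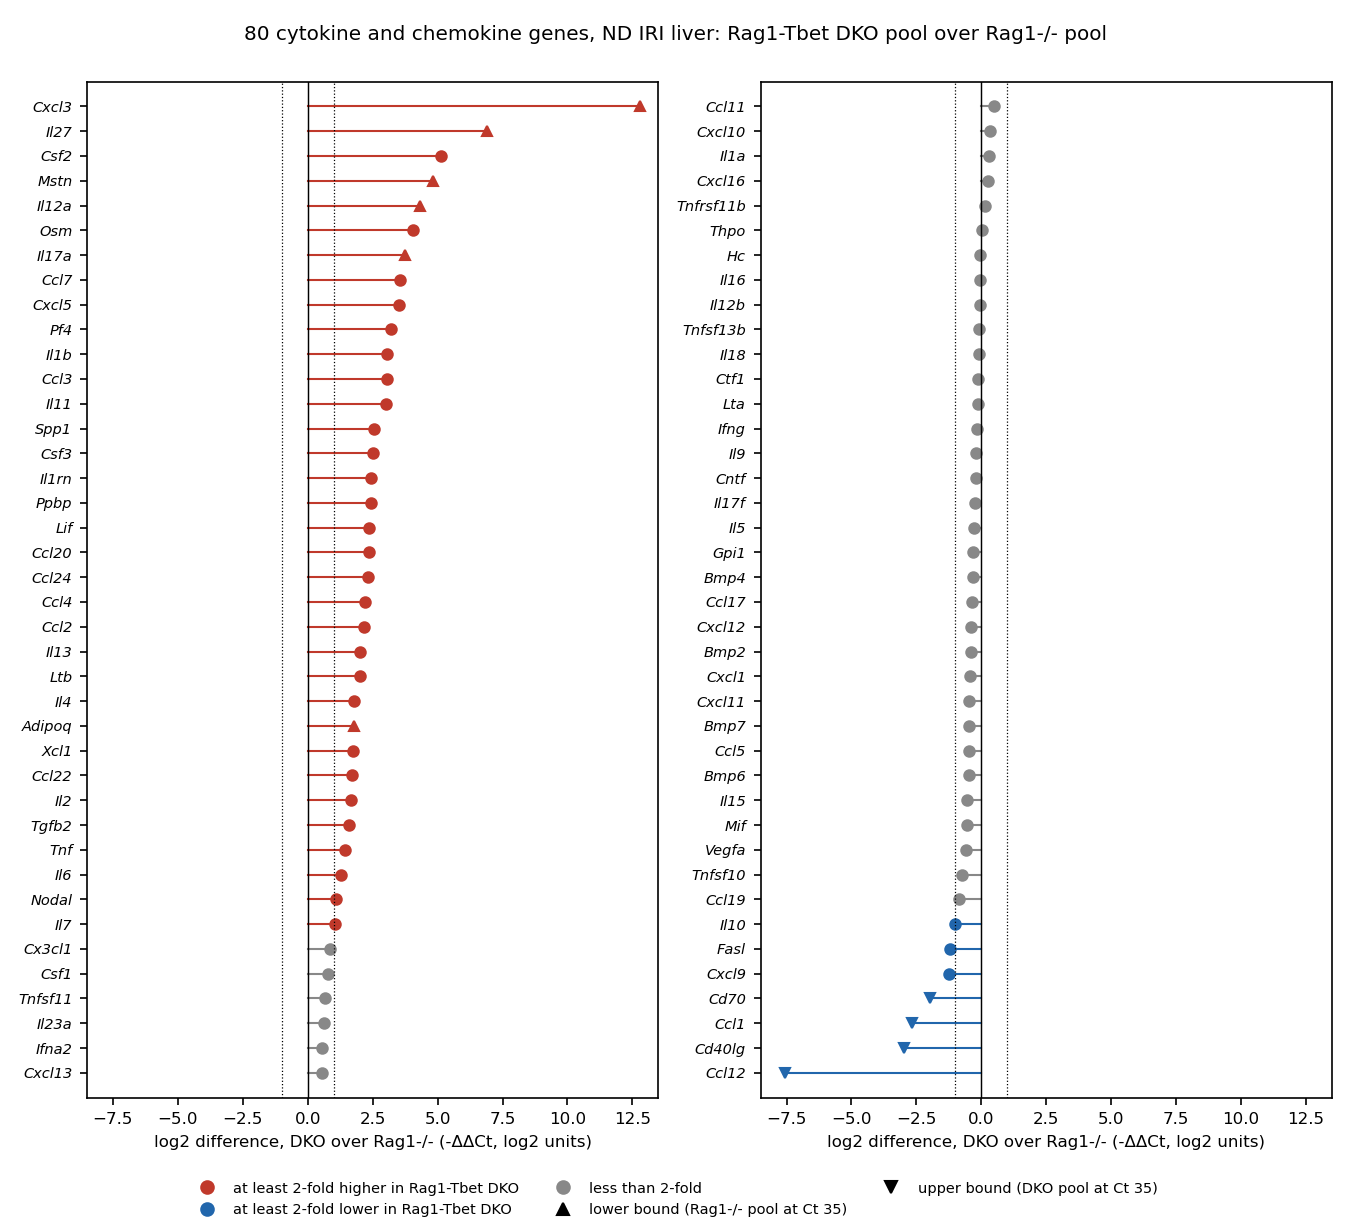
Log2 difference of the 80 genes detected in at least 1 pool, ND IRI Rag1-Tbet DKO over ND IRI Rag1-/- (x axis, -ΔΔCt against Actb and Hsp90ab1; 1 pool a side, no error bars), ranked from the highest at the top left to the lowest at the bottom right. Dotted lines mark 2-fold, red points the 34 genes that were higher, blue points the 7 that were lower, and triangles bounds; Csf2 is the highest and Cxcl9, Fasl and Il10 are the lowest of the genes measured in both pools.

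Another choice of reference genes adds 1 constant to all log2 differences and leaves their order as it is. The constant was 0.25 with *Actb* alone, -0.25 with *Hsp90ab1* alone, 0.04 with all 5 housekeeping genes, -0.56 with *Nodal*, *Il9* and *Csf1*, -0.65 with raw Ct values and -1.24 when the array's median Ct was the reference. At 2-fold, 30 genes were then higher and 16 lower with *Nodal*, *Il9* and *Csf1*, 29 higher and 20 lower with raw Ct values, and 20 higher and 36 lower against the array's median Ct. The sign was the same under all of these for the 26 measured genes above 1.24 and the 19 below -0.25. For each group of genes the distance of its median from the array median of 0.41 is therefore also given, which does not move with the reference.

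Genes that recruit and mobilise neutrophils were among the highest in Rag1-Tbet DKO liver, with 3 of 4 higher and none lower. Over the whole array 42.5% of genes were higher and 8.75% lower. *Cxcl5*, a ligand of CXCR2, was detected at Ct 26.55 in Rag1-Tbet DKO and 29.42 in *Rag1-/-* liver and was 11.5-fold higher (log2 difference 3.52). *Csf3*, which encodes G-CSF, the growth factor that releases neutrophils from marrow, was at Ct 30.47 in Rag1-Tbet DKO and 32.33 in *Rag1-/-* liver and was 5.70-fold higher (2.51). *Cxcl3*, another CXCR2 ligand, was at Ct 22.85 in Rag1-Tbet DKO liver and not detected in *Rag1-/-* liver, a difference of at least 7132-fold (log2 12.80). That bound rests on 1 well at the limit, and whether the assay worked in that well was not tested. *Cxcl3* was also not detected in ND *Rag1-/-* liver without IRI, but was read at Ct 27.77 in HFD *Rag1-/-* IRI liver and 30.95 in HFD *Rag1-/-* liver without IRI. *Cxcl1*, the CXCR2 ligand most used as a marker of hepatic injury, did not follow the others, at Ct 20.92 in Rag1-Tbet DKO and 19.85 in *Rag1-/-* liver (-0.42). The median of the 3 measured genes was 2.51, or 2.10 above the array median.

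The promoters of *Cxcl3* and *Il1b*, which were higher, are shown beside those of *Cxcl9* and *Fasl*, the lowest genes measured in both pools. They are the 250 bases before the annotated start, from RefSeq (GRCm38.p6), in the direction of transcription.
Cxcl3, chr5:90785851-90786100, plus strand: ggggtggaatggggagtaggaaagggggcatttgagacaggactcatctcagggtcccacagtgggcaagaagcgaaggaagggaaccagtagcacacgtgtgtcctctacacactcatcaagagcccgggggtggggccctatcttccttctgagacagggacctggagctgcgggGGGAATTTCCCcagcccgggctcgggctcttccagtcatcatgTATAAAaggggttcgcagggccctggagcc
Il1b, chr2:129371140-129371389, minus strand: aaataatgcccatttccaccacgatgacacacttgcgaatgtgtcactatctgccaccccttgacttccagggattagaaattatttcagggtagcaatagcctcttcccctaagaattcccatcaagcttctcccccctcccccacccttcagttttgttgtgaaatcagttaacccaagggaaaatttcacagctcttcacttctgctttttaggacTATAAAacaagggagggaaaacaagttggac
Cxcl9, chr5:92328080-92328329, minus strand: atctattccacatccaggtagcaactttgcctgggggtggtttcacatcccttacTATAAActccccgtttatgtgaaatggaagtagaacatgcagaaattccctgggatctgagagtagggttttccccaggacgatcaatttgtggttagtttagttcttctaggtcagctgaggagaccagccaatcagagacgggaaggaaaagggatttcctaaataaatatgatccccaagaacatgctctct
Fasl, chr1:161788496-161788745, minus strand: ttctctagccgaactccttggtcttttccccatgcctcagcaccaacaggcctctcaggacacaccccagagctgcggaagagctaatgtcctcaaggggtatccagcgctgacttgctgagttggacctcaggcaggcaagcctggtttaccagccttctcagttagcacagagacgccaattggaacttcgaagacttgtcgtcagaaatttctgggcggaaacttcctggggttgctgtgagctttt
Capitals mark matches, on either strand, to 5 motifs: the NF-κB motif (GGGA and TTCC with 2 bases between them), the AP-1 motif TGANTCA, the STAT motif TTCNNNGAA, the T-box half-site TCACACC and the TATA box TATAAA. *Cxcl3* held overlapping NF-κB matches in opposite directions between bases -73 and -63 from the start, and a TATA box from -30 to -25. *Il1b* held a TATA box from -31 to -26, *Cxcl9* the TATA letters from -195 to -190, and *Fasl* none of the 5. Over all 32851 promoters of the table in the same window, the NF-κB motif was present in 1.21%, AP-1 in 6.75%, STAT in 7.02%, the T-box half-site in 3.33% and the TATA letters in 12.4%. Promoters were found for 62 of the 84 genes. Of the 25 higher genes with a promoter, 3 held the NF-κB motif (*Cxcl3*, *Il6* and *Ltb*), 7 the AP-1 motif, 1 the STAT motif, 10 the TATA letters and 3 the T-box half-site (*Ccl20*, *Il11* and *Xcl1*). Of the 33 genes that did not reach 2-fold and have a promoter, 4 held the NF-κB motif, 6 the AP-1 motif, 3 the STAT motif, 10 the TATA letters and none the T-box half-site. Of the 4 lower genes with a promoter, 1 held the NF-κB motif (*Ccl1*), 2 held the TATA letters (*Ccl12* and *Cxcl9*) and none held the AP-1, STAT or T-box letters. These are matches of letters and are given as a description.

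Of the 3 CCR2 ligands on the array, which attract monocytes, *Ccl7* and *Ccl2* were higher in Rag1-Tbet DKO liver and *Ccl12* was lower. *Ccl7* was at Ct 22.85 in Rag1-Tbet DKO and 25.77 in *Rag1-/-* liver and was 11.9-fold higher (3.57). *Ccl2*, the principal CCR2 ligand, was at Ct 21.98 in Rag1-Tbet DKO and 23.48 in *Rag1-/-* liver and was 4.44-fold higher (2.15). *Cx3cl1*, which holds patrolling monocytes, and *Csf1*, the growth factor of macrophages, had smaller differences of 0.84 and 0.77. *Ccl12*, another CCR2 ligand of the mouse, went the other way, being not detected in Rag1-Tbet DKO liver and at Ct 26.80 in *Rag1-/-* liver, at least 187-fold lower (log2 -7.55). The DKO well was the only 1 of 8 in which *Ccl12* was not detected, the others ranging from Ct 22.83 in HFD Rag1-Tbet DKO IRI liver to 29.31 in ND *Rag1-/-* liver without IRI. The median of the 4 measured genes of this group was 1.495, or 1.09 above the array median, and the group had 2 genes higher and 1 lower of 5, a share of higher genes near the 42.5% of the array.

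Products of activated macrophages in the IL-1 family were split by gene. *Il1b*, the secreted agonist, was at Ct 20.93 in Rag1-Tbet DKO and 23.34 in *Rag1-/-* liver and was 8.34-fold higher (3.06). *Il1rn*, the receptor antagonist, was at Ct 21.97 in Rag1-Tbet DKO and 23.76 in *Rag1-/-* liver and was 5.43-fold higher (2.44). *Il1a*, the membrane-bound agonist, differed by only 0.28. Agonist and antagonist were thus higher together in the DKO pool.

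Cytokines that signal through gp130 had 4 of 6 genes higher and none lower, where 42.5% of all genes were higher and 8.75% lower. Their median was 1.83, or 1.42 above the array median. *Osm*, oncostatin M, a product of neutrophils and macrophages, was at Ct 25.84 in Rag1-Tbet DKO and 29.23 in *Rag1-/-* liver and was 16.4-fold higher (4.04). *Il11*, a cytokine of injured epithelium and stroma, was at Ct 29.47 in Rag1-Tbet DKO and 31.83 in *Rag1-/-* liver and was 8.06-fold higher (3.01). *Lif* was 5.17-fold higher (2.37). *Il6*, which starts the acute-phase response and supports regeneration, was at Ct 28.13 in Rag1-Tbet DKO and 28.76 in *Rag1-/-* liver, and was 2.43-fold higher (1.28). The constitutively expressed members *Ctf1* (-0.13) and *Cntf* (-0.21) did not reach 2-fold.

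The effector genes that ILC1s and NK cells are known for did not move as 1 group. *Ifng* was read at Ct 31.44 in Rag1-Tbet DKO and 30.62 in *Rag1-/-* liver, a log2 difference of -0.17 that is smaller than the SD of the housekeeping genes. With *Actb* as the only reference the *Ifng* difference was 0.08. *Fasl*, the death ligand of cytotoxic lymphocytes, was at Ct 30.44 in Rag1-Tbet DKO and 28.60 in *Rag1-/-* liver and was 2.28-fold lower (-1.19). *Tnfsf10*, the gene for TRAIL, was at Ct 24.34 in Rag1-Tbet DKO and 22.94 in *Rag1-/-* liver, 1.68-fold below (-0.75) and short of 2-fold. *Fasl* and *Tnfsf10* were thus the lowest genes of the group. *Tnf*, which macrophages also make in quantity, was 2.73-fold higher in Rag1-Tbet DKO liver (1.45), at Ct 26.99 against 27.79 in *Rag1-/-* liver. *Xcl1*, a chemokine of NK cells that attracts cross-presenting dendritic cells, was 3.34-fold higher (1.74), at Ct 25.68 in Rag1-Tbet DKO and 26.77 in *Rag1-/-* liver. *Lta*, lymphotoxin α, was level (-0.14).

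*Csf2*, which encodes GM-CSF, had the largest difference among the genes measured in both pools. It was at Ct 19.94 in Rag1-Tbet DKO and 24.41 in *Rag1-/-* liver, 34.8-fold higher (5.12). The ND Rag1-Tbet DKO pools stood apart for this gene, since it was also at Ct 19.59 in ND Rag1-Tbet DKO liver without IRI but between 24 and 28.94 in the other 6 pools. In HFD IRI livers the same comparison gave -0.85.

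*Ccl3*, a chemokine released by macrophages and NK cells, was at Ct 24.48 in Rag1-Tbet DKO and 26.87 in *Rag1-/-* liver and was 8.22-fold higher (3.04). *Ccl4*, a chemokine of the same cells, was at Ct 24.90 in Rag1-Tbet DKO and 26.46 in *Rag1-/-* liver and was 4.63-fold higher (2.21). *Ccl5*, a chemokine of lymphocytes that interferon also induces, was at Ct 25.84 in Rag1-Tbet DKO and 24.73 in *Rag1-/-* liver (-0.46). Of the 10 known products of ILC1s and NK cells, which are these and the preceding 7 effector genes, 5 were higher and 1 was lower. These shares were near the 42.5% higher and 8.75% lower of the array. The median of the 10 genes was 0.66, or 0.25 above the array median.

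Genes induced by interferon were low in the ranking, with a median of -0.46 over 7 genes, 0.87 below the array median. Only *Cxcl9*, 1 of the 7, passed 2-fold, where 8.75% of all genes were lower. The constitutive tissue factors lay about as low, with a median of -0.40, 0.81 below the array median. The low position was thus not particular to genes induced by interferon. The list of CXCR3 ligands and type I interferon had a median of -0.065. *Cxcl9*, the CXCR3 ligand that depends most closely on IFN-γ, was at Ct 29.25 in Rag1-Tbet DKO and 27.36 in *Rag1-/-* liver and was 2.36-fold lower (-1.24). It was the lowest of the 70 genes measured in both pools. *Cxcl11* was at Ct 28.95 in Rag1-Tbet DKO and 27.84 in *Rag1-/-* liver (-0.46). *Cxcl10*, which is induced by type I interferon and TNF as well, differed by 0.33. Of the 7 genes, 6 had values below 0, namely *Cxcl9*, *Cxcl11*, *Ccl5*, *Tnfsf10*, *Tnfsf13b* and *Il15*, and *Tnfsf13b*, at -0.08, turned positive with *Actb* as the only reference. *Ifna2*, the type I interferon on the array, was at Ct 28.74 in Rag1-Tbet DKO and 28.64 in *Rag1-/-* liver (0.55). With *Actb* as the only reference, the values of *Cxcl9*, *Fasl* and *Il10* fell short of 2-fold, so that no measured gene was then called lower.

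**Figure D2:**
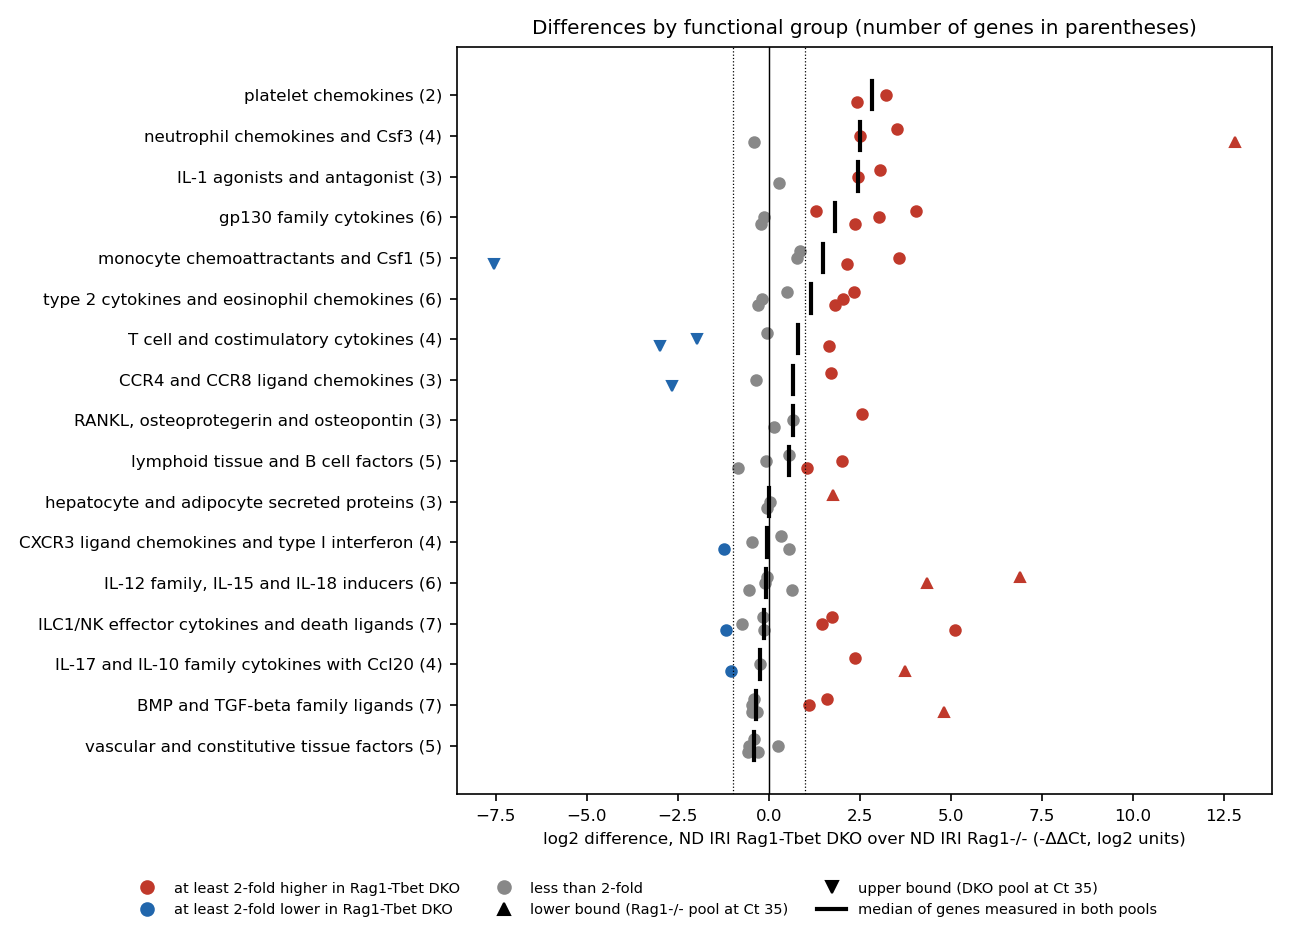
Log2 differences (x axis, -ΔΔCt, ND IRI Rag1-Tbet DKO over ND IRI Rag1-/-) of 77 genes by functional group (*Ccl3*, *Ccl4* and *Ccl5* are not grouped), 1 point per gene, with a black bar at the median of the genes measured in both pools. Groups are ordered by that median: platelet chemokines, neutrophil chemokines and the IL-1 group lead, with medians of 2.83, 2.51 and 2.44, and BMP ligands and constitutive tissue factors end the list, with medians of -0.37 and -0.40.

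None of the cytokines that stimulate ILC1s and NK cells reached 2-fold where both pools could be measured. *Il15*, which maintains these cells, was at Ct 24.82 in Rag1-Tbet DKO and 23.63 in *Rag1-/-* liver (-0.54), and passed 2-fold lower with *Nodal*, *Il9* and *Csf1* as references (-1.10). *Il18* differed by -0.10 and *Il12b*, the p40 subunit shared by IL-12 and IL-23, by -0.06. *Il23a*, the p19 partner of IL-23, differed by 0.63, which like the value of *Il15* was larger than the SD of the housekeeping genes, which were read at earlier Ct. The other subunits were detected in Rag1-Tbet DKO liver only. *Il12a*, the p35 partner of IL-12, was at Ct 31.31 there and was at least 20.3-fold higher (4.34), and *Il27*, the p28 subunit of IL-27, was at Ct 28.76 and at least 119-fold higher (6.89). The ND *Rag1-/-* IRI well was the only 1 of 8 in which *Il27* was not detected, with the other pools between Ct 27.40 and 30.52, whereas *Il12a* was not detected in 4 of the 8 pools.

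Platelet chemokines were higher for 2 of 2 genes, where 42.5% of all genes were higher. Both were also past 2-fold higher in ND liver without IRI (*Pf4* 1.81 and *Ppbp* 2.22). *Pf4*, stored in platelet α-granules, was at Ct 22.95 in Rag1-Tbet DKO and 25.52 in *Rag1-/-* liver and was 9.32-fold higher (3.22). *Ppbp*, the precursor of the neutrophil attractant NAP-2, was at Ct 23.76 in Rag1-Tbet DKO and 25.54 in *Rag1-/-* liver and was 5.39-fold higher (2.43). These genes are markers of platelets and megakaryocytes, and they were higher in the same pool as *Cxcl3*, *Cxcl5*, *Ccl2* and *Ccl7* above. The array has no lineage marker of neutrophils or monocytes. In stained sections after IRI, the study counted fewer Gr1+ neutrophils in Rag1-Tbet DKO than in *Rag1-/-* liver, on both diets. Its counts of CD68+ macrophages were similar in all groups. The neutrophil attractants *Cxcl5* and, by a bound, *Cxcl3* were thus higher in the genotype with fewer counted neutrophils. *Cxcl1* was not, at -0.42. The part that a different content of platelets or myeloid cells plays in the differences above was not tested.

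*Spp1*, osteopontin, a matrix cytokine of macrophages and activated biliary cells, was at Ct 16.80 in Rag1-Tbet DKO and 18.71 in *Rag1-/-* liver and was 5.90-fold higher (2.56). *Tnfsf11*, RANKL, was at Ct 29.18 in Rag1-Tbet DKO and 29.19 in *Rag1-/-* liver (0.66), and its decoy receptor *Tnfrsf11b*, osteoprotegerin, was level (0.15). Osteopontin was therefore the single gene of these 3 that passed 2-fold.

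Type 2 cytokines and eosinophil chemokines had 3 of 6 detected genes higher and none lower, a share near the 42.5% of the array, with a median of 1.15, or 0.74 above the array median. *Ccl24*, eotaxin-2, a chemokine of alternatively activated macrophages, was at Ct 26.29 in Rag1-Tbet DKO and 27.97 in *Rag1-/-* liver and was 5.03-fold higher (2.33). *Il13* was at Ct 31.91 in Rag1-Tbet DKO and 33.29 in *Rag1-/-* liver and was 4.08-fold higher (2.03), and *Il4* was at Ct 28.64 in Rag1-Tbet DKO and 29.79 in *Rag1-/-* liver and was 3.48-fold higher (1.80). *Ccl11*, eotaxin-1 (0.49), *Il5* (-0.30) and *Il9* (-0.20) did not reach 2-fold.

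Among genes of the IL-17 and IL-10 families, *Il17a* was detected in Rag1-Tbet DKO liver only, at Ct 31.92, and was at least 13.3-fold higher (3.73). *Ccl20*, an IL-17 target and the ligand of CCR6, was at Ct 29.19 in Rag1-Tbet DKO and 30.89 in *Rag1-/-* liver and was 5.10-fold higher (2.35). *Il17f* was level (-0.25). *Il10*, which restrains macrophage activation, was at Ct 30.01 in Rag1-Tbet DKO and 28.33 in *Rag1-/-* liver and was 2.04-fold lower (-1.03), at the edge of the threshold.

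The CCR4 and CCR8 ligands and the costimulatory genes held most of the bounds on the lower side. *Ccl1*, the ligand of CCR8, was not detected in Rag1-Tbet DKO liver and was at Ct 31.69 in *Rag1-/-* liver, at least 6.32-fold lower (-2.66). *Cd40lg* was not detected in Rag1-Tbet DKO liver and was at Ct 31.37 in *Rag1-/-* liver, at least 7.89-fold lower (-2.98), and *Cd70* was likewise not detected, against Ct 32.37 in *Rag1-/-* liver, at least 3.94-fold lower (-1.98). All 3 were read beyond Ct 31 in the pool that had them, and with a limit of Ct 32 none of the 3 kept its call. *Ccl22*, a CCR4 ligand of dendritic cells and macrophages, was 3.27-fold higher (1.71), at Ct 27.22 in Rag1-Tbet DKO and 28.28 in *Rag1-/-* liver. *Ccl17*, the other CCR4 ligand, differed by -0.37. *Il2* was at Ct 31.32 in Rag1-Tbet DKO and 32.33 in *Rag1-/-* liver and was 3.16-fold higher (1.66), and *Il16*, expressed by most leukocytes, was level (-0.05).

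Of the factors of lymphoid tissue and B cells, *Ltb*, lymphotoxin β, was 4.00-fold higher (2.00), at Ct 26.89 in Rag1-Tbet DKO and 28.24 in *Rag1-/-* liver, and *Il7* was 2.07-fold higher (1.05). *Cxcl13*, the B cell chemokine, differed by 0.55. *Ccl19*, the CCR7 ligand of stromal cells, was at Ct 23.24 in Rag1-Tbet DKO and 21.73 in *Rag1-/-* liver, a difference of -0.86 that lay just outside the threshold.

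Genes expressed steadily by the liver's own tissue lay slightly below 0. *Bmp2*, *Bmp4*, *Bmp6* and *Bmp7*, of which *Bmp2* and *Bmp6* are made by sinusoidal endothelium and drive hepcidin, had values between -0.48 (*Bmp6*) and -0.32 (*Bmp4*). *Cxcl12*, the stromal ligand of CXCR4, had -0.40, *Vegfa* -0.59, *Mif* -0.55 and *Gpi1* -0.31. *Cxcl16* was the exception among the tissue factors, at 0.25. None of these 9 genes passed 2-fold, and the 8 below 0 kept that sign under every reference tried. In the TGF-β family, *Tgfb2* was at Ct 26.47 in Rag1-Tbet DKO and 27.41 in *Rag1-/-* liver and was 3.01-fold higher (1.59). *Nodal*, an embryonic ligand of that family, was 2.14-fold higher (1.10). *Mstn*, myostatin, was detected in Rag1-Tbet DKO liver only, at Ct 30.84, and was at least 28.1-fold higher (4.81). *Adipoq*, an adipocyte product, was also detected in Rag1-Tbet DKO liver only, late, at Ct 33.88, and was at least 3.41-fold higher (1.77).

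The same comparison of genotypes in ND liver without IRI, which shares no pool with the injured pair, gave a different profile. There, 36 of 79 genes were higher in Rag1-Tbet DKO liver (45.6%) and 7 were lower (8.86%). Over the 66 genes measured in all 4 ND pools, the median difference was 0.27 with IRI and 0.91 without. *Gapdh* (0.85), *B2m* (1.12) and *Gusb* (1.12) were themselves higher in the uninjured DKO pool against *Actb* and *Hsp90ab1*, and the SD of the 5 housekeeping genes was 0.58 there, so that the 2 references fit the uninjured pair less closely. The difference between genotypes was at least 2-fold higher with IRI than without for 18 of the 66 genes and at least 2-fold lower for 25. With all 5 housekeeping genes as references, each difference of differences was higher by 0.66, and the counts were 27 and 8. None of these contrasts was tested.

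The 18 genes whose difference was higher with IRI were *Ccl7*, *Cxcl5*, *Lif*, *Il11*, *Ccl2*, *Ccl3*, *Csf3*, *Il12b*, *Ccl20*, *Il1b*, *Ccl24*, *Ccl4*, *Il13*, *Pf4*, *Tgfb2*, *Lta*, *Ltb* and *Ccl22*. *Ccl7* differed by 3.57 with IRI and -0.67 without, *Cxcl5* by 3.52 with IRI and -0.44 without, and *Il11* by 3.01 with IRI and -0.83 without. *Ccl3* (3.04 with IRI and -0.04 without), *Csf3* (2.51 and -0.32) and *Il1b* (3.06 and 0.76) had the same form. For these genes the Rag1-Tbet DKO excess in injured liver was therefore not seen at like size in uninjured liver. *Il12b* gained 2.71 from another base, at -0.06 with IRI and -2.77 without.

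Other genes were higher in Rag1-Tbet DKO liver in both pairs, with differences that changed by less than 2-fold. *Spp1* differed by 2.56 with IRI and 2.15 without, *Ppbp* by 2.43 and 2.22, *Xcl1* by 1.74 and 1.68, and *Il4* by 1.80 and 1.39. *Il1rn* (2.44 with IRI and 1.83 without) and *Tnf* (1.45 and 0.97) were near to them, although *Tnf* did not reach 2-fold without IRI. With all 5 housekeeping genes, the changes of *Il1rn* (1.27), *Tnf* (1.14), *Spp1* (1.07) and *Il4* (1.07) passed 2-fold, and those of *Ppbp* (0.87) and *Xcl1* (0.72) did not.

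The 25 genes whose difference was lower with IRI came from many groups. They included tissue genes such as *Cxcl12* (a change of -1.61), *Bmp2* (-1.57), *Hc* (-1.47) and *Bmp6* (-1.43), each of which changed by less than 2-fold with all 5 housekeeping genes. Of the 7 genes induced by interferon, 5 were among the 25, against 25 of all 66 genes. *Ccl5* (-0.74) and *Cxcl10* (0.32) were not among them. *Cxcl11* differed by -0.46 with IRI and 2.12 without, *Tnfsf10* by -0.75 and 1.57, *Il15* by -0.54 and 1.51, and *Il18* by -0.10 and 1.63. *Ifng* (-0.17 with IRI and 1.27 without) and *Cxcl9* (-1.24 and 0.25) changed in the same direction. With all 5 housekeeping genes, the changes of *Cxcl11* (-1.92), *Tnfsf10* (-1.66), *Il15* (-1.39) and *Il18* (-1.07) remained past 2-fold. Those of *Cxcl9* (-0.83), *Ifng* (-0.78) and *Tnfsf13b* (-0.62, against -1.28 in the main setting) did not. *Csf2* was 5.12 with IRI and 8.81 without, a change of -3.69. *Fasl* was lower in both, at -1.19 with IRI and -1.63 without.

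**Figure D3:**
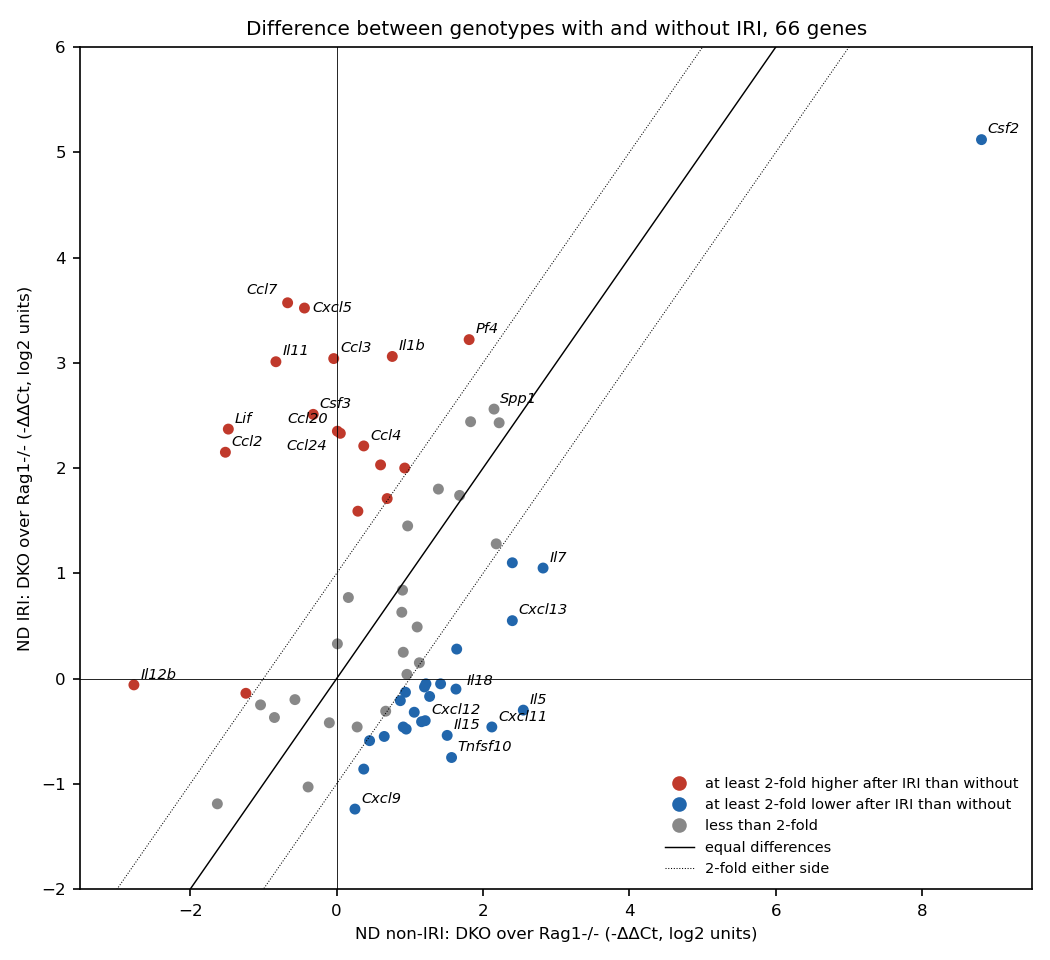
Log2 difference between genotypes (Rag1-Tbet DKO over Rag1-/-, -ΔΔCt) in ND IRI liver (y axis) against that in ND liver without IRI (x axis) for the 66 genes measured in all 4 pools, 1 pool per condition. The 18 red genes, led by Ccl7 and Cxcl5, lie at least 2-fold above the line of equal differences, and the 25 blue genes, among them Cxcl11, Tnfsf10 and Il15, at least 2-fold below it.

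In HFD IRI liver, an independent pair of injured pools, 24 of 78 genes were higher in Rag1-Tbet DKO liver (30.8%) and 9 were lower (11.5%). Higher in both injured pairs were 16 genes, 16 of the 34 on ND and 16 of the 24 on HFD. They were *Ccl2*, *Ccl3*, *Ccl4*, *Ccl7*, *Ccl24*, *Csf3*, *Cxcl3*, *Cxcl5*, *Il1b*, *Il2*, *Il6*, *Il11*, *Ltb*, *Mstn*, *Osm* and *Pf4*. *Cxcl9* and *Fasl* were lower in both, by log2 differences of -1.24 on ND and -1.99 on HFD for *Cxcl9* and of -1.19 on ND and -2.39 on HFD for *Fasl*. The genes higher in both pairs thus held the CCR2 ligands *Ccl2* and *Ccl7* and the CXCR2 ligands *Cxcl3* and *Cxcl5*. Other ligands of these receptors did not follow. *Ccl12* was at most -7.55 on ND and at 2.19 on HFD, and *Cxcl1* was at -0.42 on ND and 0.37 on HFD. *Tnfsf10*, another death ligand, did not reach 2-fold in either pair, at -0.75 on ND and -0.62 on HFD.

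The ND pair differed from the HFD pair in other groups. Over 69 genes measured in all 4 IRI pools, 24 had a difference at least 2-fold higher on ND than on HFD and 5 a difference at least 2-fold lower. *Il12b* was level on ND (-0.06) but at -4.52 on HFD, and *Cxcl13* was at 0.55 on ND and -3.01 on HFD. *Il1rn* (2.44 on ND and 0.20 on HFD), *Spp1* (2.56 and 0.44), *Ppbp* (2.43 and 0.42), *Xcl1* (1.74 and -0.90) and *Il4* (1.80 and -0.60) were past 2-fold on ND but not on HFD. On the other side, *Ifna2* was at 0.55 on ND and 4.32 on HFD, *Il17f* at -0.25 and 3.39, and *Cxcl10* at 0.33 and 1.34. None of these differences between diets was tested. In HFD liver without IRI the genotypes differed in the reverse direction, with 1 of 77 genes higher in Rag1-Tbet DKO liver (1.3%) and 42 lower (54.5%).

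**Figure D4:**
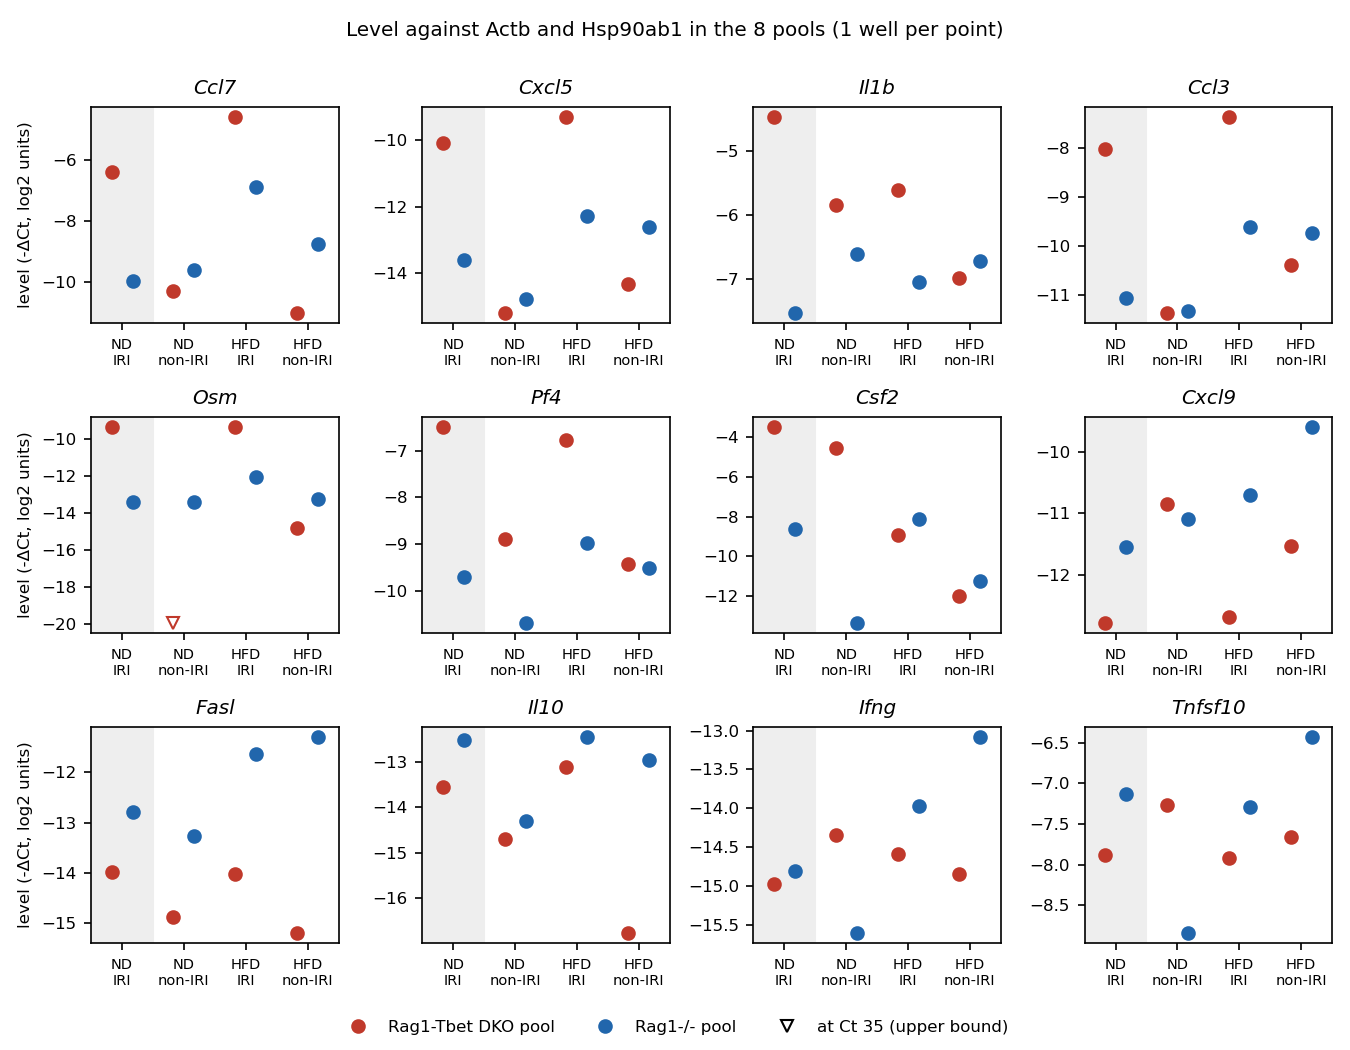
Level of 12 genes in each of the 8 pools (y axis, -ΔCt against the mean Ct of Actb and Hsp90ab1, log2 units, a separate scale per gene), Rag1-Tbet DKO in red to the left of Rag1-/- in blue, ND IRI shaded, 1 well per point and an open triangle for a well at Ct 35. In both IRI conditions the DKO pool is above the Rag1-/- pool for Ccl7, Cxcl5, Il1b, Ccl3, Osm and Pf4. It is below the Rag1-/- pool for Cxcl9, Fasl, Il10, Ifng and Tnfsf10. The ND difference of Ifng is only -0.17 and turned positive with Actb as the only reference. The high Csf2 level is that of the ND DKO pools.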

How the data were processed

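Ct values per well for the 8 pools were deposited by the authors, who pooled RNA of at least 3 livers in equal parts, made cDNA from 1.25 µg, ran 40 cycles with SYBR Green and analysed Ct with the array maker's web tool. How the threshold was set is not given in the sources used here. They also deposited normalized values (a ratio, 2 to the power of -ΔCt), which rest on different references in the 2 genotypes. These were used for gene symbols and to check that wells correspond: in *Rag1-/-* pools the Ct values returned them to within 0.0103 cycles over values of at least 0.001. The other deposited table, the authors' own fold comparison of each genotype with its uninjured ND pool, was left out.

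Log2 differences were computed as in the report, with a call at 2-fold and a limit at Ct 35. No depth exists beyond Ct, and no interval can be given. By role, 81 of the 84 genes were divided into 17 lists, with 5 overlapping lists; 1 grouping is not reported here. Lists and members were chosen with earlier results of these data known. Values in both pools are given for up to 12 measured genes in each direction, all bounds past 2-fold, up to 4 genes per list by size, 9 genes the paper names and the housekeeping genes. Of 89 RefSeq identifiers, 88 matched GRCm38.p6, all with the same symbol. The computation was tested on simulated Ct values. Alternatives were other references, raw Ct, a limit of Ct 32 and a 3-fold threshold. Computation ran in Python 3.11.15 with pandas 2.3.3, numpy 2.4.6 and, for figures, matplotlib 3.10.9.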

Additional observations from a re-analysis of the deposited data

Results flagged for a closer look

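For 6 genes the difference between genotypes in ND IRI liver was past 2-fold in 1 direction and past 2-fold in the other direction in ND liver without IRI or in HFD IRI liver, which was not tested. In HFD liver without IRI, 42 of 77 genes were lower in Rag1-Tbet DKO liver (54.5%). Of the 34 genes higher in ND IRI liver, 32 were detected in at least 1 pool of that pair. There, 22 of those 32 were lower, also untested. *Ccl2* (2.15 with IRI), *Lif* (2.37) and *Osm* (4.04) were higher in ND Rag1-Tbet DKO IRI liver, whereas without IRI the values were -1.52 for *Ccl2*, -1.48 for *Lif* and at most -6.55 for *Osm*, whose DKO well was at Ct 35. *Ccl12* was at most -7.55 in ND IRI liver, against 1.91 in ND liver without IRI and 2.19 in HFD IRI liver. *Cd40lg* was at most -2.98 in ND IRI liver and at least 2.80 in HFD IRI liver. In ND liver without IRI *Cd40lg* was at least 23.02, from a well at Ct 11.44 in the DKO pool where 5 of the other 7 pools were at Ct 35. *Il13* was 2.03 in ND IRI liver and at most -2.85 in HFD IRI liver.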

How the results depend on the processing

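With 34 genes higher and 7 lower in the main setting, the count lower was 4 with *Actb* alone, 4 at a limit of Ct 32, 4 at a 3-fold threshold, 16 with *Nodal*, *Il9* and *Csf1*, 20 with raw Ct and 36 against the array's median Ct, under which 20 genes were higher. The median log2 difference became -0.15 with *Nodal*, *Il9* and *Csf1*, -0.24 with raw Ct and -0.83 with the median Ct, and under the median Ct *Il7* (-0.19) and *Nodal* (-0.14) turned. These follow from the constant that a reference adds. Centring on the median difference, chosen after seeing the data, gave 31 and 10, and leaving out *Csf2* and the 7 genes at the limit in 1 of 8 pools, also chosen then, gave 29 and 6 of 76 genes. Of the contrasts with uninjured liver, the count at least 2-fold lower was 15 with *Actb*, *Hsp90ab1* and *Gapdh*, 8 with all 5 housekeeping genes and 9 at 3-fold, and the count higher was 11 with raw Ct. At a limit of Ct 32, 31 higher and 4 lower genes kept their call, and those lost were *Adipoq*, *Il13*, *Il17a*, *Ccl1*, *Cd40lg* and *Cd70*. No paired analysis was possible because each condition is 1 pool, and no replicate could be left out.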

Other observations

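Across lists that overlap those above, genes of activated macrophages and Kupffer cells had 9 of 12 members higher and 1 lower in injured ND liver of Rag1-Tbet DKO mice, with a median log2 difference of 2.15, against 42.5% higher among all genes. Those not higher were *Il1a* (0.28), *Il12b* (-0.06) and *Il10* (-1.03). Without IRI on ND the same list had 3 higher and 2 lower, where 45.6% of all genes were higher and 8.86% lower. In HFD IRI liver it had 6 higher and 1 lower, where 30.8% of all genes were higher and 11.5% lower. The list was chosen with earlier results of these data known. Of the 12 cytokines made mainly by T cells, which these mice lack, 9 were detected in at least 1 pool, 4 were higher (*Il2*, *Il4*, *Il13* and *Il17a*) and 1 was lower (*Cd40lg*). These shares were near the 42.5% higher and 8.75% lower of all genes. The median of the 7 members measured in both pools was -0.14, or 0.55 below the array median. *Il13*, *Il17a* and *Cd40lg* lost their call at a limit of Ct 32.

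Among the 8 pools, 20 genes had their highest level in ND Rag1-Tbet DKO IRI liver, among them *Il1b*, *Il1rn*, *Tnf*, *Pf4*, *Spp1*, *Ccl24*, *Lif*, *Csf2* and *Csf3*. In ND *Rag1-/-* IRI liver 6 genes did, namely *Cxcl1*, *Vegfa*, *Il17f*, *Il9*, *Lta* and *Cd70*. *Il3* was at Ct 9.36 in ND Rag1-Tbet DKO liver without IRI and at Ct 35 in the other 7 pools.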
